A study of Mus musculus with 2 samples.

Results

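The barcodes described here were those with at least 300 but fewer than 500 detected genes in droplet-based scRNA-Seq of sorted mouse lung group 2 innate lymphoid cells (ILC2s). They numbered 4435 of 20361 barcodes in all, 2384 of 10866 in the WT library (21.9%) and 2051 of 9495 in the Pac1-/- library (21.6%). They were chosen by their number of detected genes alone, whatever share of their RNA was mitochondrial, and are called low-complexity barcodes below. They were set against the barcodes with at least 1000 detected genes of the same library, called deep barcodes, of which there were 7274 in WT and 6492 in Pac1-/-. WT and Pac1-/- mice were 6 to 8 weeks old on the C57BL/6J background, and Pac1-/- mice lack the phosphatase PAC1, which Dusp2 encodes. Lungs were perfused, digested and enriched for ILC2s, and live lineage-negative cells with CD90.2, ST2 and Sca-1 on their surface were sorted, without stimulation, from 4 to 5 mice per genotype, pooled, and 13000 cells were loaded for each library. With 1 library per genotype and no label that assigns a cell to a mouse, differences between the genotypes and between the libraries cannot be told apart, and no test was run.

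In droplet-based sequencing each droplet holds a bead whose oligonucleotides carry 1 barcode, and a random tag on each captured transcript, its unique molecular identifier (UMI), lets copies made by PCR count as 1 molecule. A barcode can collect RNA from an intact cell, from a cell that has lost part of its cytoplasm, or from RNA free in the suspension. Mitochondrially encoded transcripts lie inside an organelle, Malat1 is a long noncoding RNA held in the nucleus, and transcripts of ribosomal proteins are among the most abundant of the cytosol, so that their shares are commonly read as measures of cell condition. ILC2s are marked by the transcription factors Gata3 and Rora and by Il1rl1, which encodes the IL-33 receptor ST2, and they produce IL-5, IL-13, amphiregulin and calcitonin gene–related peptide (CGRP), the product of Calca. Scgb1a1 encodes the secretoglobin of airway club cells, Sftpc the surfactant protein C of alveolar type 2 cells, and Hbb-bs and Hba-a1 the chains of haemoglobin in red blood cells.

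The sequences of 8 of the 17 low-complexity barcodes rich in RNA of another cell type are shown here as examples, chosen after their values were seen so that each type of RNA described below is represented. Each is 16 bases, written 5′ to 3′, with cytosines in capitals, since the cytosine content of low-complexity and deep barcodes is compared below.
WT, Scgb1a1 3883 of 4587 UMIs: CgatgCgaggtaCtgg
WT, Scgb1a1 324 of 879 UMIs: aCCtaCCgtCagtCta
WT, Sftpc 60 of 718 UMIs: gtgatgtgtgtgtgga
Pac1-/-, Scgb1a1 3137 of 3811 UMIs: gCttgggtCCCataag
Pac1-/-, Scgb1a1 1763 of 2754 UMIs: CattgtttCtagCCaa
Pac1-/-, Hbb-bs 1403 of 3602 UMIs: tCaCtatagCtgttaC
Pac1-/-, Hbb-bs 507 of 1654 UMIs: tCatttgCaaCgaCag
Pac1-/-, Mgp 80 of 650 UMIs: attgttCagCttCatg

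Depth separated the 2 kinds of barcode by construction, since few genes can be detected from few UMIs. Low-complexity barcodes held a median of 596 UMIs in WT (quartiles 542 and 673, highest 4587) and 578 UMIs in Pac1-/- (quartiles 534 and 655, highest 3811), whereas deep barcodes held a median of 4594.5 and 5834 UMIs. All barcodes in both files held at least 500 UMIs. The low-complexity barcodes together carried 1471319 UMIs in WT and 1248400 UMIs in Pac1-/-, which were 2.62% and 2.07% of the libraries. In steps of 50 genes from 300 upward, there were 324, 1051, 629 and 380 WT barcodes. The corresponding Pac1-/- numbers were 211, 980, 559 and 301. The lowest step lay at the limit of 500 UMIs in the files, with a median of 516 UMIs in WT and 513 in Pac1-/-, so the fall in number below 350 genes cannot be told apart from that limit. Barcodes with at least 500 but fewer than 1000 genes numbered 1189 in WT and 893 in Pac1-/-, fewer than the low-complexity barcodes. The libraries shared 29 barcode sequences, 14 of which were low-complexity in at least 1 of them and 2 in both.

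**Figure D1:**
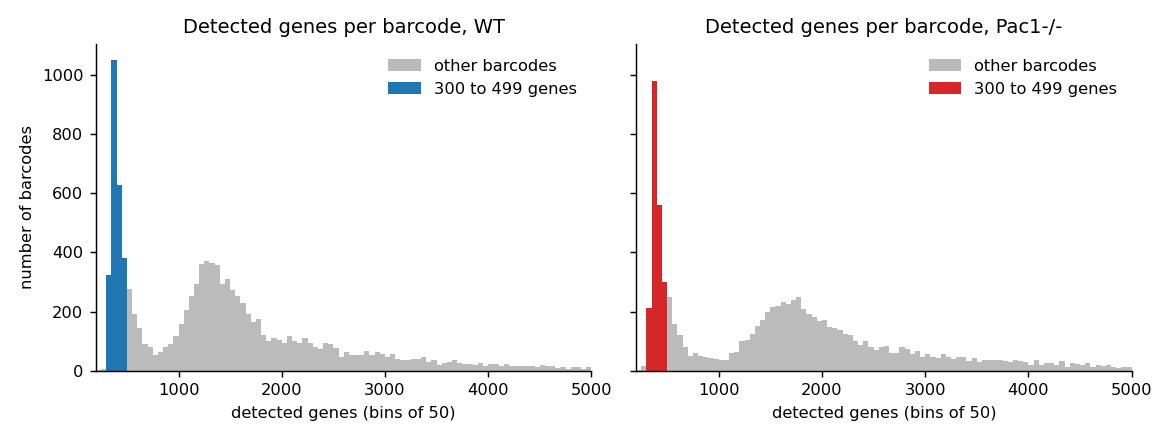
Number of barcodes (y axis) by detected genes in bins of 50 (x axis) in the WT and Pac1-/- libraries, with the low-complexity barcodes in colour. The coloured barcodes peak in the bin that starts at 350 genes, with 1051 barcodes in WT and 980 in Pac1-/-, near the limit of 500 UMIs in the files, and the numbers fall towards 500 genes.

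At the lower limit the files held few barcodes. Within 10 genes below it there were 3 WT barcodes (median mitochondrial share 2.18%) and 7 Pac1-/- ones (14.6%), and within 10 genes above it 5 WT (15.9%) and 6 Pac1-/- ones (13.1%). At the upper limit the mitochondrial share ran on without a step. In WT the 56 barcodes in the 10 genes below 500 and the 75 in the 10 genes from 500 had median mitochondrial shares of 1.14% and 1.44%. In Pac1-/- the 52 and 56 barcodes on either side had 1.30% and 1.31%.

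The targeted gene was measured first. Dusp2 had 15 UMIs in low-complexity WT barcodes, or 10.2 counts per 1000000 UMIs (CPM, exact 95% Poisson interval 5.71 to 16.8). Low-complexity Pac1-/- barcodes had none among 1248400 UMIs, with an exact upper limit of 2.95 CPM. The WT level was therefore at least 4.24-fold higher, taking 3 counts (2.40 CPM) as the floor over the Pac1-/- barcodes and the measured WT level. With the counting error of both libraries, the interval of the log2 ratio of Pac1-/- over WT reached up to -1.61. Deep barcodes held 1393 UMIs in WT (26.3 CPM) and 5 in Pac1-/- (0.0864 CPM). The genotype of both libraries was thus also visible in the low-complexity barcodes. This and all later intervals cover counting error only.

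Mitochondrial RNA was lower, not higher, in most low-complexity barcodes. The 13 mitochondrially encoded genes made up a median of 1.30% of a barcode's UMIs in WT (quartiles 0.888 and 1.88%) against 2.54% in deep barcodes (2.16 and 2.93%), and 1.08% in Pac1-/- (0.724 and 1.59%) against 3.33% (2.83 and 3.89%). In both libraries the upper quartile of the low-complexity barcodes lay below the lower quartile of the deep ones. Over summed UMIs the shares were 2.14% against 2.66% in WT and 2.60% against 3.54% in Pac1-/-. A small number of barcodes held much more. The mitochondrial share exceeded 10% in 95 low-complexity WT barcodes (3.98%, exact binomial interval 3.24 to 4.85%) and in 120 Pac1-/- ones (5.85%, 4.87 to 6.95%), against 0.165% and 0.847% of deep barcodes. Such barcodes were not particular to the low-complexity range, since they made up 4.79% of WT and 27.2% of Pac1-/- barcodes with at least 500 but fewer than 1000 genes. The highest low-complexity share was 23.6% in WT and 41.9% in Pac1-/-.

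Ribosomal protein transcripts kept nearly the share they had in deep barcodes. They made up a median of 27.0% of a WT barcode's UMIs (quartiles 23.9 and 29.8%) against 27.9% in deep barcodes (25.1 and 30.7%), and 26.0% in Pac1-/- (23.4 and 28.6%) against 27.1% (24.3 and 30.1%), so that the quartile ranges overlapped. Malat1 was of similar median level but spread more widely. Its 5th and 95th percentiles were 1.44 and 10.0% of UMIs in low-complexity WT barcodes against 2.44 and 6.25% in deep ones, with medians of 3.66% and 3.95%. In Pac1-/- they were 0.994 and 7.93% against 1.60 and 4.80%, with medians of 3.05% and 2.82%. Lower UMI numbers widen these percentiles too.

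Gm42418 was higher in low-complexity barcodes of both libraries. Gm42418 is annotated as a long noncoding RNA at chr17:39846958-39848788 (GRCm38, plus strand) and lies over a copy of ribosomal RNA sequence, so its counts are commonly taken as ribosomal RNA. It made up a median of 2.26% of UMIs in low-complexity WT barcodes (quartiles 1.69 and 2.94%) and 0.616% in deep ones (0.456 and 0.860%). In Pac1-/- the medians were 2.52% (1.92 and 3.17%) and 0.592% (0.438 and 0.821%). The quartile ranges did not overlap in either library. The share fell with gene number, as the plot of RNA classes by gene number shows. Very high shares were rare, with over 10% in 12 WT and 18 Pac1-/- low-complexity barcodes (0.503% and 0.878%) and in 1.24% and 1.76% of deep ones.

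**Figure D2:**
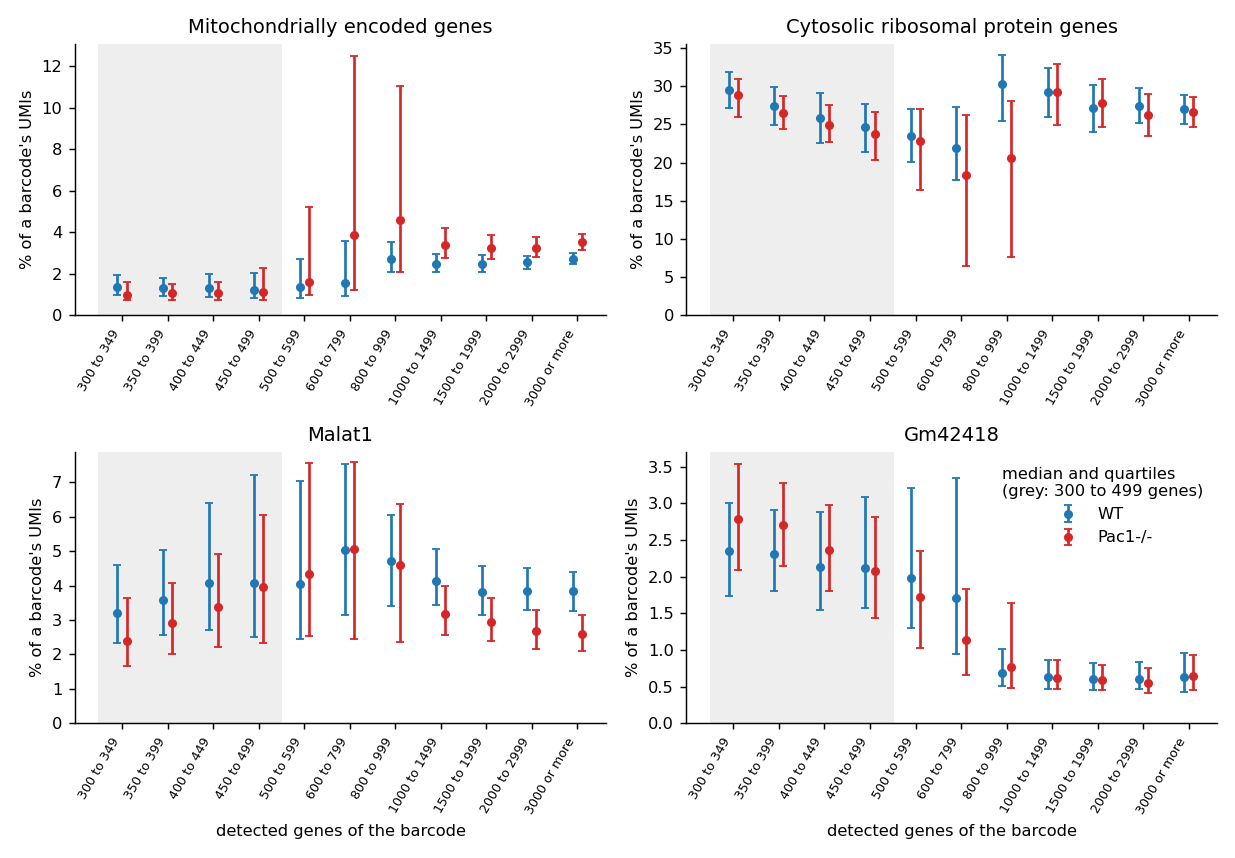
Share of a barcode's UMIs (y axis, percent) from mitochondrially encoded genes, cytosolic ribosomal protein genes, Malat1 and Gm42418, by number of detected genes (x axis); points are medians and bars quartiles over barcodes, WT in blue and Pac1-/- in red, and the grey area marks the low-complexity barcodes. The Gm42418 medians of low-complexity barcodes, 2.26% in WT and 2.52% in Pac1-/-, lie above those of deep barcodes, 0.616% and 0.592%, while their mitochondrial medians, 1.30% and 1.08%, lie below.

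Gene by gene, the summed RNA of low-complexity barcodes was close to that of deep barcodes. UMIs were summed over each kind of barcode, scaled to CPM, and compared as log2 ratios relative to the median gene for genes with a mean of at least 20 CPM. Of 4967 genes in WT, 35 were past 2-fold (0.705%), 16 higher (0.322%) and 19 lower (0.383%). Of 5329 genes in Pac1-/-, 58 were past 2-fold (1.09%), 36 higher (0.676%) and 22 lower (0.413%). The relative log2 ratio lay within 0.5 of the median gene for 89.0% of WT and 87.0% of Pac1-/- genes. Of 4766 genes measured in both libraries, 9 were past 2-fold higher in both (0.189%) and 5 lower in both (0.105%). The highest were Scgb1a1, Lyz2, Hbb-bs, AY036118, mt-Nd6, Gm42418, Rnf34, Cep85 and Phykpl, and the lowest Gm26532, Nfkbid, Map2k2, Rps15 and E4f1. Rnf34, Cep85, Phykpl, Gm26532 and E4f1 fall outside the rule for named genes and are given because they complete these counts. The minimum of 20 CPM applied to the mean over both kinds of barcode, so a gene near 0 in one kind could enter. Lyz2, at 0.829 and 1.42 CPM in deep barcodes, entered only through its low-complexity level. So did Scgb1a1 in WT, at 13.2 CPM in deep barcodes, and their higher calls rest on that.

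**Figure D3:**
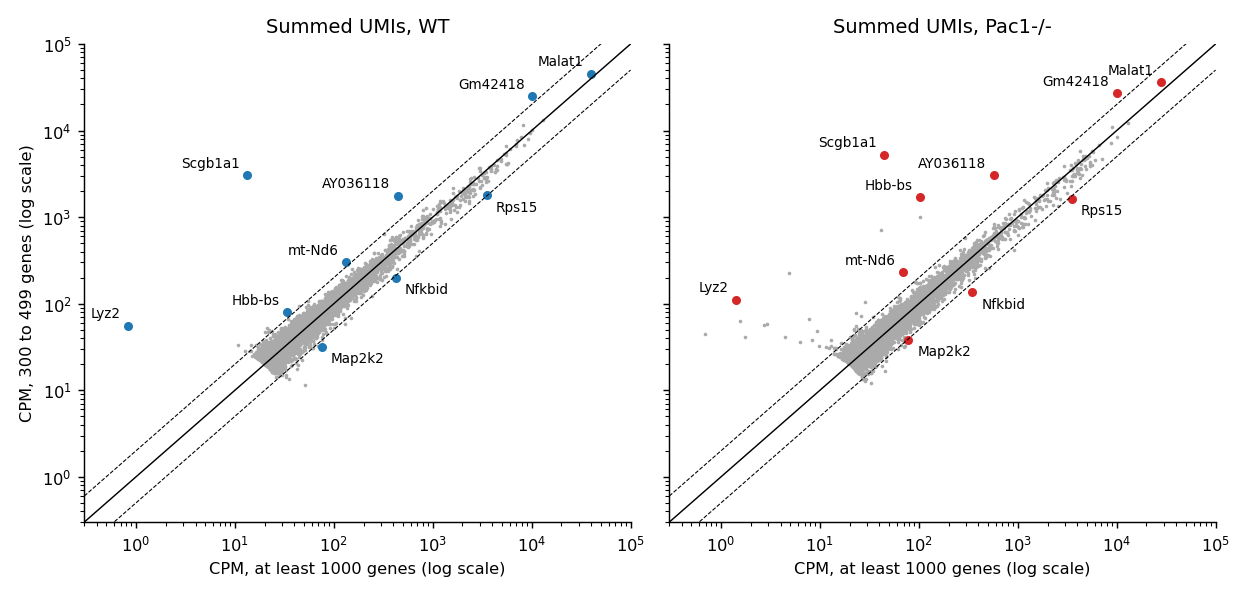
CPM of each gene over low-complexity barcodes (y axis) against CPM over deep barcodes (x axis), both log scales, for the 4967 WT and 5329 Pac1-/- genes compared that are above 0 on both axes; the solid line marks equality and the dashed lines 2-fold. Most genes follow the diagonal, while Scgb1a1, Lyz2, Hbb-bs, AY036118, Gm42418 and mt-Nd6 lie above the upper dashed line.

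The most abundant transcripts were led by Malat1 and Gm42418. Malat1 reached 45376 CPM in low-complexity WT barcodes against 39572 in deep ones, and 36300 against 27811 in Pac1-/-. Gm42418 followed with 25146 against 10193 CPM in WT and 27240 against 9976 in Pac1-/-. The other 8 of the top 10 were Rps24, Tmsb4x, Rps29, Tpt1, Rps27, Rplp1, Rps21 and Rpl23, whose relative log2 ratios ranged from -0.35 (Rplp1) to 0.47 (Rps24) in WT and from -0.31 (Rplp1) to 0.27 (Rps24) in Pac1-/-. Together the 10 transcripts made up 14.4% of low-complexity and 11.9% of deep UMIs in WT, and 12.1% and 9.58% in Pac1-/-. Ribosomal protein genes have many processed copies in the genome, so their exact counts are uncertain.

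Among the transcripts with the highest ratios were some of the ribosomal RNA locus on chromosome 17. Gm42418 had a relative log2 ratio of 1.27 in WT (95% interval 1.25 to 1.28) and 1.43 in Pac1-/- (1.41 to 1.45). AY036118, at chr17:39847113-39848035 on the minus strand and so inside Gm42418, had 1.97 (1.91 to 2.03) and 2.41 (2.36 to 2.46). The strand setting of the authors' counting was not given in the sources used here, so reads of these overlapping genes may not be fully separated. Gm26917, also counted among genes that overlap ribosomal RNA sequence, had 0.26 (0.12 to 0.39) and 0.20 (0.06 to 0.32).

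Mt-Nd6, the subunit of complex I encoded alone on the other strand of the mitochondrial genome (chrM:13552-14070), was higher while most mitochondrial transcripts were lower. It reached 304 against 132 CPM in WT (relative log2 ratio 1.17, interval 1.03 to 1.31) and 230 against 69.4 CPM in Pac1-/- (1.71, 1.53 to 1.88). Of the 13 mitochondrially encoded genes, 9 lay below the median gene in each library. The 9 in Pac1-/- included mt-Co1, a subunit of cytochrome oxidase, at -0.64 (-0.68 to -0.60) and mt-Nd1 at -0.71 (-0.78 to -0.65). The 4 above it in both libraries were mt-Nd6, mt-Atp8, mt-Nd4l and mt-Nd5, the last with an interval of -0.05 to 0.14 in Pac1-/-. Lars2, the mitochondrial leucyl-tRNA synthetase, had 0.96 (0.86 to 1.05) and 0.97 (0.86 to 1.08). Others with high ratios were Gm17056, Parg, Mia2, Ccdc82, Zcchc8 and Gcc2, with values from 0.57 to 0.96 across both libraries. Of the 4 nuclear-retained transcripts compared, 3 lay above the median gene in each library and none was past 2-fold. Tug1 and Neat1 had 0.49 and 0.15 in WT and 0.78 and 0.08 in Pac1-/-, the last with an interval of -0.05 to 0.21, while Kcnq1ot1 had -0.09 and -0.08. Scgb1a1 and Hbb-bs are described with the other cell types.

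The 12 transcripts with the lowest ratios included Nfkbid, Map2k2 and Rps15. Nfkbid, a nuclear inhibitor of NF-κB, was at 198 CPM in low-complexity and 423 in deep WT barcodes (relative log2 ratio -1.13, interval -1.30 to -0.96), and at 135 and 347 CPM in Pac1-/- (-1.38, -1.61 to -1.16). Map2k2, the kinase MEK2 of the ERK pathway, had -1.27 (-1.72 to -0.86) and -1.04 (-1.48 to -0.63), and Rps15 -1.01 (-1.07 to -0.96) and -1.12 (-1.19 to -1.06). Dusp5, a phosphatase of ERK, and Cdkn1a, the cell-cycle inhibitor p21, had -0.86 and -0.83 in WT and -1.01 and -0.92 in Pac1-/-. Jund, a subunit of AP-1, had -0.74 and -0.75. Gm20186, Tecr, Leng8, Alkbh1, Rpl31 and Use1 completed the 12 lowest, with values from -1.20 to -0.71 across both libraries. Immediate-early genes leaned the same way. Of 13 measured, 12 lay below the median gene in WT and 11 in Pac1-/-, with medians of -0.28 and -0.16, and none was past 2-fold, against 0.705% and 1.09% of all genes. Of the apoptosis and stress genes 8 were measured in WT and 7 in Pac1-/-, with medians of -0.38 and -0.26, and none was past 2-fold either. The heat shock genes had medians of 0.12 and -0.08 over 9 genes. By definition the median over all genes was 0.

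These ratios ran with the base composition of the transcripts. Genes of both libraries were split into 5 groups of equal size by the GC content of their longest GENCODE transcript, which was known for 99.7% of those compared. The median relative log2 ratio went from 0.12 in the group with the lowest GC content, below 42.7%, to -0.21 in the group with the highest, above 53.9%, in WT, and from 0.12 to -0.17 in Pac1-/-. Of the genes past 2-fold lower with a known GC content, 15 in WT and 13 in Pac1-/- fell in the group of highest GC content. The higher calls did not lie at low GC content: from the lowest to the highest group they numbered 3, 1, 4, 4 and 3 in WT and 4, 4, 5, 14 and 8 in Pac1-/-. By transcript length the medians went from -0.14 in the group of shortest transcripts to 0.05 in the longest in WT and from -0.14 to 0.07 in Pac1-/-. The part of GC content and length in the named differences was not tested.

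The ILC2 markers were a slightly smaller part of the RNA in low-complexity than in deep barcodes. All 12 ILC2 markers were measured in both libraries and none was past 2-fold, against 0.705% of all genes in WT and 1.09% in Pac1-/-, so nothing is read from this count. The markers together made up 0.754% of low-complexity UMIs in WT (0.740 to 0.768%) against 0.833% of deep ones (0.830 to 0.835%), and 0.615% in Pac1-/- (0.601 to 0.629%) against 0.729% (0.727 to 0.731%). Il1rl1 was at 1146 against 1113 CPM in WT and 895 against 995 in Pac1-/-. Gata3 was at 895 against 1213 CPM in WT and 757 against 1037 in Pac1-/-, a relative log2 ratio of -0.47 in each (intervals -0.55 to -0.39 and -0.57 to -0.38). Rora was at 1935 against 2277 CPM and at 1303 against 1694 CPM. Areg, which encodes amphiregulin, was at 852 against 789 CPM and at 839 against 794 CPM. The median relative log2 ratio over the list was -0.25 in WT, with 10 of 12 markers below the median gene, and -0.34 in Pac1-/-, with 11 of 12 below. Each marker's difference was thus small, and most pointed down. Against deep barcodes of at most 10% mitochondrial UMIs and 2 times the median depth, the medians were closer to those of all genes. They were -0.16 in WT (-0.31 to 0.02) and -0.21 in Pac1-/- (-0.40 to -0.09).

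The transcripts of ILC2 effector molecules together made up 3439 CPM in low-complexity and 3471 CPM in deep WT barcodes (relative log2 ratio -0.05, interval -0.09 to -0.01), and 3078 against 2967 CPM in Pac1-/- (0.03, -0.01 to 0.08). The sum was thus close to that of deep barcodes in both libraries. Il5 was at 676 against 724 CPM in WT (relative log2 ratio -0.13, interval -0.23 to -0.04) and at 429 against 405 CPM in Pac1-/- (0.06, -0.06 to 0.19). Calca was at 566 against 496 CPM and at 328 against 352 CPM. Csf2, which encodes the cytokine GM-CSF, was at 1251 against 1119 CPM and at 1712 against 1462 CPM. Il13 was at 165 against 192 CPM and at 107 against 149 CPM. Of 10 effector genes 7 were measured in each library, and none was past 2-fold, against the same 0.705% and 1.09% of all genes. In each library 5 of the 7 lay below the median gene, with medians of -0.13 and -0.19. Il9 had no UMI in low-complexity barcodes.

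Counted per barcode, low-complexity barcodes carried few but frequent ILC2 transcripts. In WT 2341 of 2384 had at least 1 UMI of an ILC2 marker (98.2%) and 1672 had UMIs of at least 3 different markers (70.1%, 68.3 to 72.0%). In Pac1-/- 1961 of 2051 had at least 1 (95.6%) and 1171 had at least 3 (57.1%, 54.9 to 59.2%). When every barcode was thinned to 500 UMIs, at least 3 markers were seen in 58.1% of low-complexity and 55.5% of deep WT barcodes, and in 46.5% and 48.1% of Pac1-/- barcodes. At equal depth the shares therefore differed by under 3 percentage points. No barcode was left out by thinning.

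The low-complexity barcodes differed from deep ones in how ILC2 transcripts were divided among them. For each gene a pair ratio was computed after the data had been seen: the frequency with which 2 UMIs of the same barcode both came from the gene, divided by the frequency when every barcode is a draw from 1 common profile. Both frequencies were averaged over barcodes with equal weight. The ratio is 1 when all barcodes share 1 profile, and it exceeds 1 by about the squared coefficient of variation of the gene's true share otherwise. Since deep barcodes differ widely in depth, the ratio was also computed with barcodes weighted by their number of UMI pairs. Il5 had a pair ratio of 1.31 in low-complexity and 6.07 in deep WT barcodes, and 1.55 and 10.4 in Pac1-/-. Ccl1, which encodes a chemokine, had 1.19 and 5.24 in WT and 1.58 and 8.71 in Pac1-/-. Areg had 1.28 and 3.97, then 1.35 and 5.44. Cxcl2 had 1.43 and 4.97, then 1.38 and 6.68. Fos had 1.09 and 2.36, then 1.15 and 2.41. A deep barcode with Il5 was thus much more likely than others to hold more of it, and a low-complexity barcode only slightly. Csf2 showed the same order, with 1.27 and 3.31 in WT and 1.60 and 4.13 in Pac1-/-. Weighted by pairs the order of these genes was the same and the gap narrower, with 1.27 and 3.98 for Il5 in WT and 1.56 and 7.17 in Pac1-/-, and 1.07 and 2.25, then 1.11 and 1.84, for Fos.

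Il13 and Calca were less even. Il13 had a pair ratio of 2.87 in low-complexity and 11.0 in deep WT barcodes, from 43 pairs in the former, while only 3 pairs were seen in low-complexity Pac1-/- barcodes (0.621, against 19.4 in deep ones). Calca had 2.23 and 4.14 in WT and 2.33 and 7.0 in Pac1-/-. Weighted by pairs, Calca had 2.59 and 2.86, then 3.35 and 4.29. Without the low-complexity barcodes over 10% mitochondrial UMIs and with equal weights, Calca had 1.67 and 1.18. The gap was smaller for Il1rl1, Rpl13, Gata3 and Actb, but not for every other transcript. Hspa1a had 1.98 and 6.22 in WT and 1.85 and 4.95 in Pac1-/-. Il1rl1 had 1.16 and 1.32 in WT and 1.18 and 1.24 in Pac1-/-, the latter in the opposite order when weighted by pairs (1.19 and 1.15), and Rpl13 1.04 and 1.04, then 1.06 and 1.05. Gata3 had 1.10 and 1.40, then 1.08 and 1.40, and Actb, which encodes actin, 1.07 and 1.25, then 1.09 and 1.34. The corresponding ratio for Il5 with Il13 was 1.12 in low-complexity and 2.66 in deep WT barcodes, and 1.18 and 4.86 in Pac1-/-.

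For Malat1 and mitochondrial transcripts the order was the opposite. Malat1 had a pair ratio of 1.34 in low-complexity and 1.09 in deep WT barcodes, and 1.37 and 1.13 in Pac1-/-. Mt-Co1 had 2.43 and 1.09 in WT and 4.49 and 1.12 in Pac1-/-. With barcodes over 10% mitochondrial UMIs left out, the low-complexity values of mt-Co1 were 1.47 and 1.40. For Gm42418 the order depended on the weights. It had 1.62 and 4.72, then 1.49 and 5.85, with equal weights, and 2.47 and 1.76, then 1.83 and 1.70, weighted by pairs. Over the 630 WT and 590 Pac1-/- genes with at least 20 expected pairs, the median pair ratio was 1.13 in low-complexity and 1.23 in deep WT barcodes, and 1.17 and 1.21 in Pac1-/-. It was lower in low-complexity barcodes for 64.6% and 56.9% of these genes with equal weights, but for only 51.3% and 51.5% weighted by pairs. The median weighted by pairs was 1.11 and 1.14 in WT and 1.13 and 1.12 in Pac1-/-, so over genes at large the order of the medians in Pac1-/- depended on the weights.

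**Figure D4:**
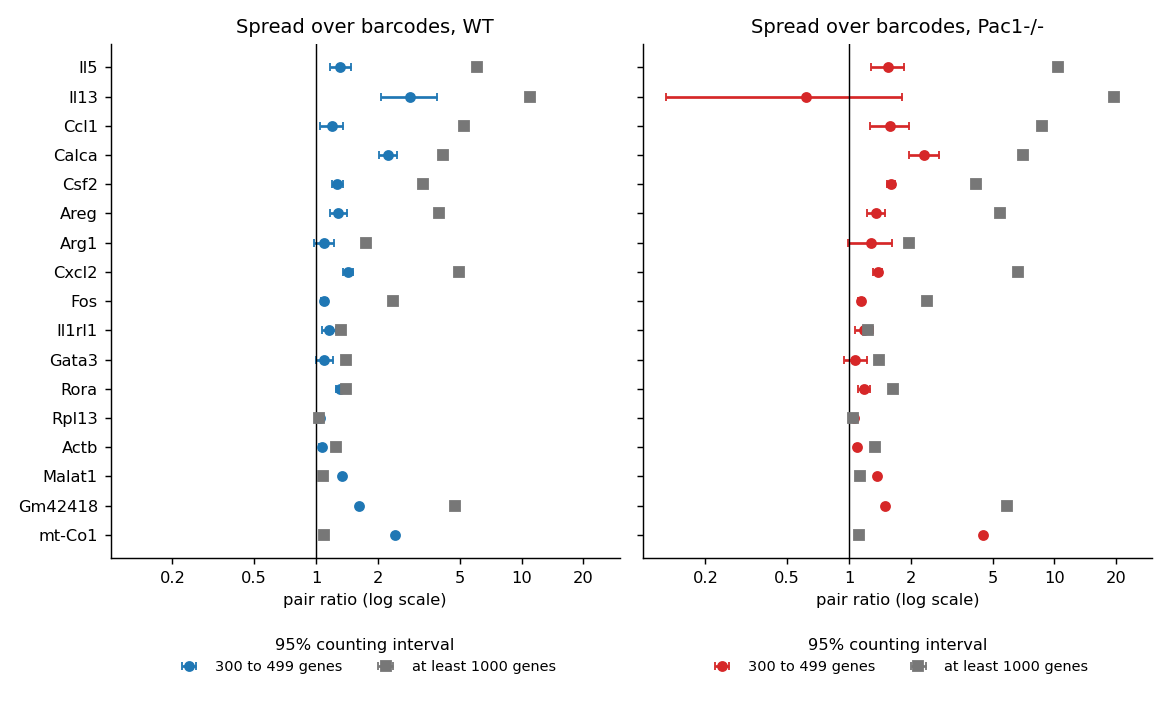
Pair ratio with barcodes weighted equally (x axis, log scale) of 17 genes (y axis) in low-complexity (coloured circles) and deep barcodes (grey squares); the vertical line at 1 marks barcodes that are draws from 1 profile, and bars are 95% intervals that treat UMI pairs as independent counts and so are too narrow where few barcodes hold many pairs. Il5 sits at 1.31 against 6.07 in WT and at 1.55 against 10.4 in Pac1-/-, whereas mt-Co1 sits at 2.43 against 1.09 and at 4.49 against 1.12.

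The low-complexity barcodes over 10% mitochondrial UMIs held a different RNA from the rest. To compare them, mitochondrial UMIs were left out and the other genes scaled to CPM. Malat1 was at 91141 CPM in the 95 WT barcodes over 10% and 44572 in the 2289 others (log2 ratio 1.03, interval 0.99 to 1.07), and at 74664 and 34929 CPM in the 120 and 1931 Pac1-/- barcodes (1.10, 1.05 to 1.14). Ribosomal protein transcripts went the other way, at 92815 and 269750 CPM in WT (log2 ratio -1.54) and 137399 and 261802 CPM in Pac1-/- (-0.93). Cytosolic housekeeping transcripts had -1.44 and -0.80, and those of the nuclear-encoded respiratory chain -1.43 and -0.85. Transcripts of the endoplasmic reticulum, which is also outside the nucleus, had -0.19 (-0.41 to 0.03) and -0.43 (-0.63 to -0.24). High mitochondrial and Malat1 shares thus went with low shares of abundant cytosolic transcripts.

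The summed ILC2 markers were a larger part of the RNA in these barcodes, and the effector transcripts were not. The markers made up 13084 CPM over 10% and 7488 CPM in the others in WT (log2 ratio 0.81, 0.69 to 0.91), and 8842 and 6154 CPM in Pac1-/- (0.52, 0.40 to 0.64). Rora was at 5111 and 1852 CPM in WT and at 2221 and 1283 CPM in Pac1-/-. Il1rl1 was at 1746 and 1148 CPM, and at 1551 and 879 CPM. Gata3 had log2 ratios of 0.69 (0.34 to 1.02) and 0.22 (-0.17 to 0.58). The effector list had 0.01 (-0.20 to 0.22) in WT and -0.37 (-0.59 to -0.15) in Pac1-/-. Among genes with a mean of at least 500 CPM, chosen by the size of the ratio after the values were seen, the largest included Gm26917 at 2.91 and 2.52, Gm20186 at 2.11 and 2.37, the orphan nuclear receptor Nr4a2 at 1.71 and 1.61, and Son, a protein of nuclear speckles, at 1.47 and 1.5. In the others Gm26917 was at 264 and 319 CPM, Gm20186 at 320 and 346, and Nr4a2 at 385 and 288. These 3 genes would thus not have met the minimum on the others alone. Gm26917 was also uneven over low-complexity barcodes, with pair ratios of 9.55 in WT and 4.05 in Pac1-/-. Haemoglobin had 1 UMI in the 95 WT barcodes and 5 in the 120 Pac1-/- ones, and epithelial markers 9 and 25. In Pac1-/-, B cell markers were at 196 CPM over 10%, from 14 UMIs, and 55.1 CPM in the others (log2 ratio 1.83, 0.88 to 2.68), and platelet markers at 265 CPM, from 19 UMIs, and 25.3 CPM (3.39, 2.47 to 4.27). All 19 platelet UMIs came from 1 barcode, and 10 of the 14 B cell UMIs from 1 barcode, so both intervals are too narrow. In WT these lists had 0 and 2 UMIs over 10%. The median number of UMIs was 678 against 594 in WT and 722 against 574 in Pac1-/-.

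Not all barcodes poor in ribosomal transcripts were rich in mitochondrial ones. A ribosomal share under 15% was found in 129 low-complexity WT barcodes (5.41%) and in 119 Pac1-/- ones (5.80%), against 0.949% and 1.69% of deep barcodes. Barcodes with at least 500 but fewer than 1000 genes held more of them, 12.2% in WT and 31.9% in Pac1-/-. Of the low-complexity ones 52 and 40 held at most 10% mitochondrial UMIs. In the WT 52 the median Malat1 share was 9.31% and the median mitochondrial share 7.35%, whereas in the Pac1-/- 40 they were 0.948% and 0.341%. Barcodes rich in RNA of another cell type, described below, were not left out of these groups, and their part in this difference was not tested. The limit of 15% was set after the data had been seen and cuts a continuous range.

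RNA of other cell types was rare in number of barcodes and large in a few. Barcodes that took 5% or more of their UMIs from the marker list of a type other than ILC2 or T cell were called rich in that type, a limit also set after the data had been seen. There were 5 such low-complexity barcodes in WT (0.210%), 4 epithelial and 1 stromal, and 12 in Pac1-/- (0.585%), 6 epithelial, 3 erythroid and 3 stromal. Deep barcodes held 2 in WT (0.0275%) and 5 in Pac1-/- (0.0770%). The rich barcodes held 4376 of the 4740 epithelial UMIs in low-complexity WT barcodes (92.3%) and 6232 of 6814 in Pac1-/- (91.5%). The leading barcode of each library, CgatgCgaggtaCtgg and gCttgggtCCCataag, held 3883 and 3137 UMIs of Scgb1a1, with 25 and 18 of Scgb3a2, another secretoglobin. The 12 rich Pac1-/- barcodes held 4055 of 4378 haemoglobin UMIs (92.6%), 3991 of them in 2 of the 3 erythroid ones.

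The levels of Scgb1a1 and Hbb-bs were recomputed without rich barcodes. Scgb1a1 was at 3073 CPM in low-complexity and 13.2 in deep WT barcodes, and at 5276 and 45.0 CPM in Pac1-/-. Without rich barcodes of both kinds it was at 215 and 13.2 CPM in WT and at 367 and 20.2 CPM in Pac1-/-. Hbb-bs was at 79.5 and 33.6 CPM in WT and at 1701 and 102 CPM in Pac1-/-, and without rich barcodes at 79.9 and 3.19 CPM and at 146 and 6.97 CPM. Lyz2, the lysozyme of macrophages, was at 55.7 and 0.829 CPM and at 111 and 1.42 CPM, and a single barcode held up to 25 of its 82 UMIs in WT and 29 of 139 in Pac1-/-. Mgp, a matrix protein of stromal cells, was at 27.9 and 3.71 CPM and at 223 and 4.89 CPM, and without rich barcodes its low-complexity levels were 15 and 91.8 CPM. T cell markers, some of which ILC2s also express, had 740 and 828 UMIs and were lower relative to the median gene for all 3 genes compared, with medians of -0.52 in WT and -0.34 in Pac1-/-. B cell markers had 77 UMIs in each library, and mast cell or basophil markers 46 and 56. Cpa3, a mast cell protease, was past 2-fold higher in WT only, with 42 UMIs in 41 barcodes (relative log2 ratio 1.12, interval 0.64 to 1.57), and had 0.54 (0.09 to 0.96) in Pac1-/-; the difference between libraries was not tested. Neutrophil markers had 1 and 2 UMIs, NK or ILC1 markers 0 and 1, and eosinophil markers 0 and 1. Endothelial markers had 79 and 100 UMIs, platelet markers 44 and 48, and dendritic cell markers 13 and 6. Platelet markers were at 29.9 CPM in low-complexity and 1.998 CPM in deep WT barcodes, and at 38.4 and 1.19 CPM in Pac1-/-. Their relative log2 ratios were 3.87 (3.33 to 4.39) and 4.99 (4.43 to 5.54). The platelet UMIs lay in 27 and 16 barcodes, with up to 8 and 19 in 1 barcode, so both intervals are too narrow. Dendritic cell markers had 1.15 (0.22 to 1.96) and 2.19 (0.69 to 3.399), and endothelial markers 0.27 (-0.07 to 0.597) and 0.96 (0.66 to 1.25).

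ILC2 RNA was also measured in the barcodes whose main RNA came from another cell type. Outside the UMIs of the other type's list, ILC2 markers made up 7 of 3112 UMIs in the 5 rich WT barcodes (0.225%, 0.0905 to 0.463%) and 20 of 7575 in the 12 Pac1-/- ones (0.264%, 0.161 to 0.407%). In the remaining low-complexity barcodes they made up 0.757% in WT (0.743 to 0.771%) and 0.622% in Pac1-/- (0.608 to 0.636%). The intervals did not overlap in either library. ILC2 effector transcripts made up 0.0964% (0.0199 to 0.281%) against 0.345% in WT and 0.185% (0.101 to 0.310%) against 0.311% in Pac1-/-. The denominators of the rich barcodes include transcripts of the other type that are not on its list.

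Single UMIs of Scgb1a1 and haemoglobin were spread over many low-complexity barcodes. Scgb1a1 was seen in 240 WT barcodes (10.1%) and 366 Pac1-/- ones (17.8%), and in 7.41% and 13.6% of deep barcodes, although these held several times the UMIs. Leaving out rich barcodes, 203 of 238 low-complexity WT barcodes with Scgb1a1 held 1 UMI of it, and the most in a barcode was 26 UMIs in WT and 10 in Pac1-/-. The mean was 0.132 UMIs per low-complexity and 0.0963 per deep WT barcode, and 0.222 and 0.180 in Pac1-/-. Hbb-bs was seen in 4.70% of low-complexity and 1.39% of deep WT barcodes, and in 6.68% and 4.02% of Pac1-/- ones. The means without rich barcodes were 0.0492 and 0.0232 in WT and 0.0883 and 0.0621 in Pac1-/-. For both genes the mean number of UMIs per barcode was thus no smaller in low-complexity barcodes than over all deep ones. In Pac1-/- barcodes with 3000 or more genes, Scgb1a1 reached 0.251 UMIs per barcode and was seen in 21.1%.

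Hba-a1 and Il5 were seen more often at greater depth. Hba-a1 was seen in 2.73% of low-complexity and 9.94% of deep WT barcodes, and in 4.39% and 23% of Pac1-/- ones. As a share of UMIs Hba-a1 was nevertheless higher in low-complexity barcodes. Without rich barcodes it was at 44.4 against 18.9 CPM in WT and at 76.4 against 54.8 CPM in Pac1-/-. Il5 was seen in 32.6% and 55.6% in WT and in 21.8% and 40.9% in Pac1-/-. At 500 UMIs, Il5 would be seen in 27.7% of low-complexity and 18.2% of deep WT barcodes, and in 18.9% and 10.2% of Pac1-/- ones. Scgb1a1 would be seen in 8.53% and 0.802%, and in 15.6% and 1.16%. Haemoglobin as a whole had 0.0910 UMIs per low-complexity and 0.557 per deep WT barcode (ratio 0.163, interval 0.142 to 0.187), and 2.13 and 2.40 in Pac1-/- (0.890, 0.861 to 0.921). Both ratios rested on few barcodes. Without rich barcodes they were 0.513 in WT and 0.265 in Pac1-/-. Deep barcodes held several times the UMIs, and as a share of UMIs haemoglobin was higher in low-complexity barcodes. It was at 147 against 76.4 CPM in WT and at 3507 against 269 CPM in Pac1-/-. Without rich barcodes the levels were 148 against 24.4 CPM and 263 against 67.2 CPM. The 4 haemoglobin genes were not in the same proportion. Leaving out barcodes with most of their UMIs from haemoglobin, Hbb-bs made up 53.9% of 217 haemoglobin UMIs in low-complexity WT barcodes (47.0 to 60.7%) and 44.0% of 4054 in deep ones (42.5 to 45.6%), and 55.0% (49.9 to 60.1%) and 33.5% (32.6 to 34.4%) in Pac1-/-. The deep shares rested on few barcodes. Without rich barcodes, Hbb-bs had 117 of 217 haemoglobin UMIs in low-complexity and 169 of 1292 in deep WT barcodes, and 180 of 323 and 403 of 3885 in Pac1-/-.

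**Figure D5:**
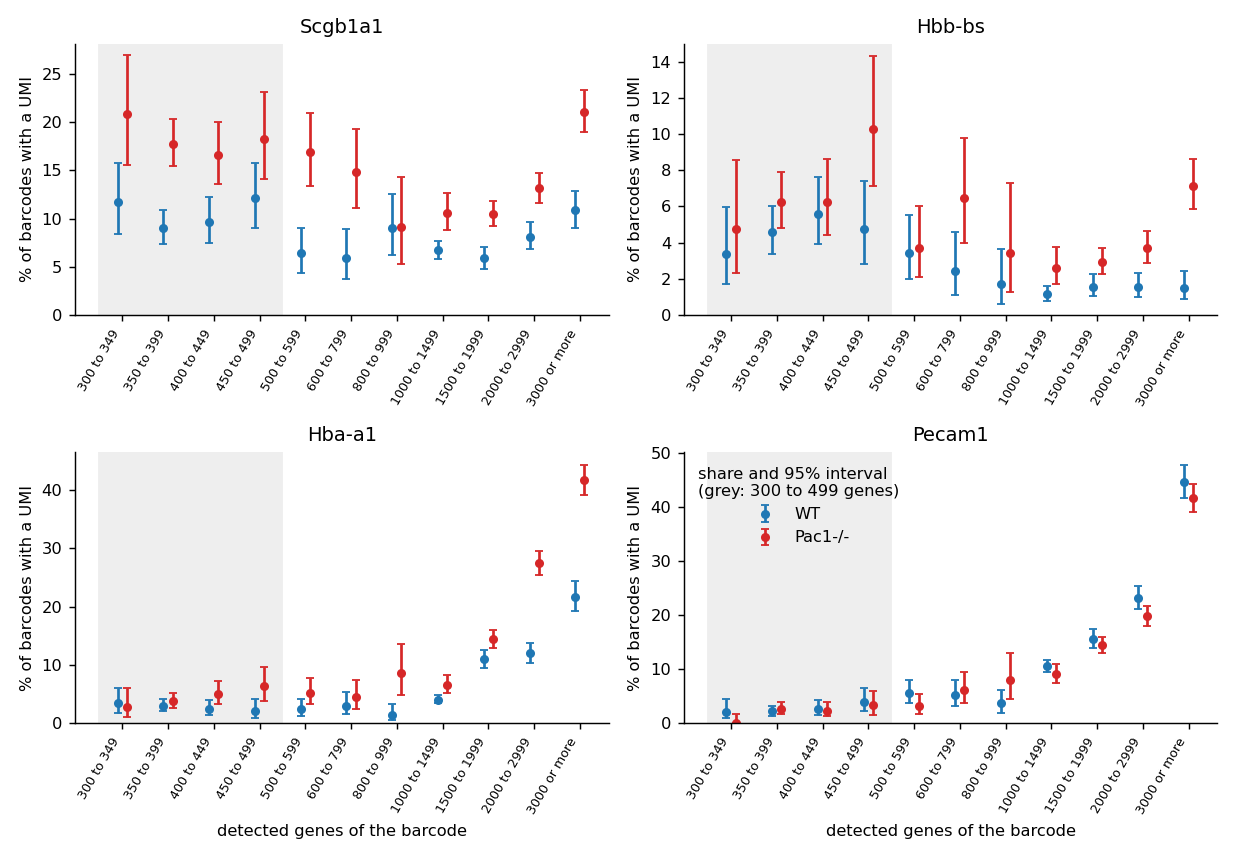
Share of barcodes with at least 1 UMI (y axis, percent) of Scgb1a1, Hbb-bs, Hba-a1 and Pecam1, an endothelial and leukocyte adhesion molecule, by number of detected genes (x axis); points are shares and bars exact 95% binomial intervals, WT in blue and Pac1-/- in red, and the grey area marks the low-complexity barcodes. Scgb1a1 is seen in 10.1% of low-complexity and 7.41% of deep WT barcodes, whereas Hba-a1 goes from 2.73% to 9.94%. These shares are not taken at equal depth, and as a share of UMIs Hba-a1 was higher in low-complexity barcodes.

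The number of genes at equal depth is given as a description only, since the barcodes were chosen by their gene number and hold little more than 500 UMIs. The number of genes expected in 500 UMIs drawn from a barcode without replacement was 338 ± 17.8 (SD over 2384 barcodes) in low-complexity and 334 ± 16.7 (7274 barcodes) in deep WT barcodes. In Pac1-/- it was 343 ± 21.9 (2051 barcodes) and 341 ± 18.9 (6492 barcodes). The means thus differed by 4.38 and 2.51 genes. At 300 UMIs the difference was 0.68 genes in WT and -0.39 in Pac1-/-, where its sign turned.

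Differences between the libraries appeared in low-complexity barcodes much as in deep ones. Of 2679 genes with a mean of at least 50 CPM in deep barcodes, 76 were past 2-fold lower in Pac1-/- than in WT deep barcodes, relative to the median gene. All 76 lay below the median gene in the low-complexity barcodes too, 54 of them past 2-fold. Of the 10 past 2-fold higher, all 10 lay above the median gene and 9 were past 2-fold. The share of all 2679 genes past 2-fold in low-complexity barcodes was not counted, so the 54 and 9 cannot be set against it. Over all 2679 genes, the log2 ratios of Pac1-/- over WT in low-complexity and in deep barcodes had a Pearson correlation of 0.880. Rps29 was at 13264 CPM in WT and 4608 in Pac1-/- low-complexity barcodes, and at 13005 and 4021 in deep ones. Rps27 was at 10267 and 4195 CPM, and at 10111 and 3753 in deep ones. The low-complexity and deep barcodes of a library share a reaction and its free RNA, so these values are a description of each library and not of the genotype.

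The barcode sequences themselves differed in base composition. Cytosine made up 26.6% of bases in low-complexity WT barcodes (26.1 to 27.0%) and 25.1% in deep ones (24.8 to 25.3%), and 27.3% (26.8 to 27.8%) and 24.8% in Pac1-/-. Guanine made up 23.3% and 24.9% in WT and 22.5% and 24.9% in Pac1-/-. Cytosine was more frequent in low-complexity barcodes at 14 of 16 positions in WT and at all 16 in Pac1-/-. Barcodes between the low-complexity and deep ones had 26.2% and 27.3% cytosine. Low-complexity barcodes were no nearer in sequence to deep ones than deep ones were to each other. The nearest deep barcode differed at 2 or more bases for every low-complexity and every deep barcode, so this minimum does not set the 2 kinds apart. It differed at exactly 2 for 6.21% of low-complexity and 6.45% of deep barcodes in WT and for 5.31% and 5.84% in Pac1-/-.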

How the data were processed

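The deposited files held unnormalized UMI counts, a gene by barcode matrix, for 1 WT and 1 Pac1-/- library of sorted lung ILC2s. The authors had made them with Cell Ranger by alignment to mm10 (version 6.1.1 in the submitters' processing notes, 4.0.0 in the file header), from 10x Genomics 3′ v3.1 libraries. Barcode processing and cell quality control were also done in Cell Ranger. The threshold that selected barcodes was not given in the sources used here, and none held fewer than 500 UMIs. The annotation release was not given in the sources used here, and coordinates, GC content and lengths were taken from GENCODE for GRCm38, matched on gene identifier. No doublets were removed and no clustering was done.

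Barcodes were selected on detected genes (at least 300 and under 500; deep, at least 1000). UMIs were summed per kind of barcode and scaled to CPM. Log2 ratios carry exact conditional binomial 95% intervals, shares Clopper-Pearson intervals and levels exact Poisson intervals; the ratios are relative to the median gene (log2 0.0352 in WT and 0.0191 in Pac1-/-) over genes with a mean of at least 20 CPM. Cells of 1 library are not replicates, so no test was run and a call means past 2-fold. Named genes were the 10 most abundant, the 12 highest and 12 lowest by ratio with the same sign in both libraries and at least 50 CPM, members of 14 cell type and 13 RNA class lists, and Dusp2. Expected genes and shares at 500 UMIs came from the hypergeometric formula, and marker numbers from 1 seeded thinning. The members and lists were chosen with earlier results of these data known. Ratios and formulas were tested on simulated data. Python 3.11.15, numpy 2.4.6, scipy 1.17.1, pandas 2.3.3 and matplotlib 3.10.9 were used. Depth ran from 500 to 4587 UMIs in low-complexity and from 1642 to 81548 in deep barcodes. Alternatives were narrower gene limits, mitochondrial limits, another reference, equal weights, other filters and depths, and, added after seeing the data, leaving out barcodes rich in another cell type's markers and weighting pair ratios by UMI pairs.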

Additional observations from a re-analysis of the deposited data

Results flagged for a closer look

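Barcodes below the range described, with under 300 detected genes, enter none of the comparisons and held mostly haemoglobin RNA. Haemoglobin made up 53.2% of the 19834 UMIs in the 19 WT barcodes (52.5 to 53.9%) and 74.2% of the 121563 UMIs in the 59 Pac1-/- barcodes (74.0 to 74.5%). Most of the UMIs came from haemoglobin in 6 WT and 23 Pac1-/- barcodes and from Scgb1a1 in 2 and 7, while 7 and 23 held over 10% mitochondrial UMIs. They stood out as a signal outside the main measurement, far above the 0.0147% and 0.351% of haemoglobin in low-complexity barcodes. In the 31 Pac1-/- barcodes of this kind that were rich in another cell type's markers, ILC2 markers made up 9 of 8363 other UMIs (0.108%, 0.0492 to 0.204%).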

How the results depend on the processing

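The reported values were log2 ratios of the mitochondrial share of -0.31 in WT and -0.45 in Pac1-/-, of the Gm42418 share of 1.30 and 1.45, 35 and 58 genes past 2-fold, ILC2 medians of -0.25 and -0.34, haemoglobin ratios per barcode of 0.163 and 0.890, and 4.38 and 2.51 more genes at 500 UMIs. Of 66 alternative values 39 stayed within the counting interval, the spread between barcodes or 1.5 times the count, 26 moved beyond it and 1 reversed beyond it. The Pac1-/- difference in genes at equal depth also changed sign, to -0.39 at 300 UMIs. It is counted among the 39, since it lay within the spread between barcodes. With members of at least 400 genes the mitochondrial ratios were -0.27 and -0.26, those of Gm42418 1.27 and 1.36, and the genes past 2-fold 67 and 103. The Pac1-/- haemoglobin ratio reversed to 2.01, since 1 barcode of 413 genes holds 2945 of its UMIs. With members of at most 10% mitochondrial UMIs the mitochondrial ratios were -0.74 and -1.47, and the Pac1-/- haemoglobin ratio was 0.945. With the narrower reference, at most 10% mitochondrial UMIs and 2 times the median depth, the mitochondrial ratios were -0.25 and -0.36, those of Gm42418 1.11 and 1.27, and those of haemoglobin 0.256 and 0.777. With each barcode weighted equally, the mitochondrial ratios were -0.34 and -0.58 and those of Gm42418 1.13 and 1.26. With a minimum of 100 CPM, 7 and 11 genes were past 2-fold, and with no filter 2160 and 2488, since more or fewer genes enter. Without barcodes rich in another cell type's markers, the haemoglobin ratios were 0.513 and 0.265 and the Pac1-/- mitochondrial ratio -0.43. With barcodes weighted by UMI pairs, chosen after seeing the data, the order of the Gm42418 pair ratios reversed to 2.47 against 1.76 in WT and 1.83 against 1.70 in Pac1-/-. The ILC2 medians stayed within their range under each alternative run, and were -0.16 and -0.21 with the narrower reference. The differences in genes at equal depth stayed within the spread between single barcodes, which is wide for a difference of means. In WT they ran from 0.68 at 300 UMIs to 8.36 with members of at least 400 genes. In Pac1-/- they ran from -0.39 to 5.39 under the same 2 settings.

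With 1 library per genotype, no replicate was left out. No paired analysis was possible because the groups share 1 replicate number only and no test was run. Low-complexity barcodes hold about 600 UMIs, so 1 UMI is a share of more than 0.1%, and genes below 20 CPM were not compared. Barcodes with fewer than 500 UMIs were not analysed here, so the profile of empty droplets was not measured and the part of free RNA was not tested.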
